A study of Mus musculus with 12 samples.

Results

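The 4 inhibitor of differentiation genes Id1, Id2, Id3 and Id4 were followed through bulk RNA sequencing of the mouse dentate gyrus. They were chosen by name as the Id family, 4 of the 52636 genes counted in each of the study's tables, and each symbol matched 1 Ensembl gene. The dentate gyrus is the part of the hippocampus that holds the granule cells, and its total RNA was sequenced from C57BL/6 mice in 4 groups of 3 libraries. WT mice were wild type and received no vector that the labels mention. KO mice carried a knockout of Fst, the gene of follistatin. The GFP vector group were KO mice given AAV9-CB::GFP, an adeno-associated virus of serotype AAV9 that carries green fluorescent protein. The Fst vector group was given AAV9-CB::Fst, which carries follistatin; the labels call these mice OE and state no genotype for them. The labels state no age and no dose. WT and KO were counted in 1 table and the vector groups in another, so the vector, the table and whatever else differed between them cannot be told apart.

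Bone morphogenetic proteins, BMPs, are secreted ligands that bind paired receptors, which phosphorylate SMAD1, SMAD5 and SMAD9; with SMAD4 these enter the nucleus, and the Id genes are their best known direct targets. Id proteins have a helix-loop-helix domain but no DNA-binding region, so they pair with E proteins and keep them from forming active dimers with tissue-specific factors such as those of the Neurod family. In the dentate gyrus BMP signals are known to hold neural stem cells quiescent, and Id4 is known to be expressed in those cells; Id1 and Id3 are also known from blood vessels. Follistatin binds activins tightly and several BMPs more weakly, and activins signal through other SMADs, SMAD2 and SMAD3.

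The Id genes lie on 4 chromosomes (GENCODE, GRCm38). Id1 (ENSMUSG00000042745) is on the plus strand of chromosome 2 at 152736251 to 152737410. Id2 (ENSMUSG00000020644) spans 25093799 to 25097140 on chromosome 12, minus strand. Id3 (ENSMUSG00000007872) is on the plus strand of chromosome 4 at 136143497 to 136145755. Id4 (ENSMUSG00000021379) is on the plus strand of chromosome 13 at 48261228 to 48266026. Id4 overlaps A330033J07Rik and Gm49291, both on the other strand, by 82 and 171 exon bases, and these held 15 and 9 counts over all 12 libraries against 12356 for Id4. No other gene overlaps an exon of Id1, Id2 or Id3.

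SMADs of the BMP branch bind GC-rich motifs such as GGCGCC, and SMAD3 and SMAD4 bind GTCT. The stretches below, 5′ to 3′, are shown because they carry such a motif, in capitals, just before the RefSeq start of an Id gene, which for Id2 and Id3 lies inside the longer GENCODE gene. They come from RefSeq (GRCm38.p6) at chr12:25096306-25096335 on the minus strand for Id2, chr4:136143741-136143770 on the plus strand for Id3 and chr13:48260866-48261115 on the plus strand for Id4.
Id2: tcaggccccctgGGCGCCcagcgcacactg
Id3: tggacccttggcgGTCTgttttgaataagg
Id4: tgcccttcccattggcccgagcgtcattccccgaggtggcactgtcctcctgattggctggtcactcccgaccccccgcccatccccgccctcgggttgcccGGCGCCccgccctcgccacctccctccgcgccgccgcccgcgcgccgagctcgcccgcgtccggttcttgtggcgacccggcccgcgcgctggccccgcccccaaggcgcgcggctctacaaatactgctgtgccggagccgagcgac

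Promoter windows were matched for 3 of the 4 genes: Id2, Id3 and Id4; Id1 had no entry. In the 250 bases before the RefSeq start, on both strands, GGCGCC occurred 1 time for Id2, 0 times for Id3 and 1 time for Id4. It occurred in 9.59% of all 32851 windows of that length. GTCT occurred 1 time for Id2, 2 times for Id3 and 0 times for Id4, and in 82.9% of all windows. The E-box CANNTG, the motif that E proteins bind, occurred 1 time for Id2 and not for Id3 or Id4, and in 66.2% of all windows. No matches overlapped each other. The GGCGCC shown lies 231 bases before the start of Id2 and 148 bases before that of Id4, and the GTCT shown 68 bases before that of Id3. GC content was 62.8% for Id2 and Id3 and 75.6% for Id4, where the median of all windows was 52.4%. These matches describe letters in a window and were not tested for binding.

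Libraries held 8081824 to 11331337 counts, so the floor of 3 counts used here equals 0.265 to 0.371 CPM, the count scaled to a library total of 1000000. The granule cell transcription factor Prox1 stood at 226 to 457 CPM over the 12 libraries and the granule cell gene C1ql2 at 453 to 813 CPM. Fst had 33 to 51 counts in WT libraries, 2 to 4 in KO, 0 to 1 in the GFP vector group and 1497 to 2078 in the Fst vector group. Ribosomal RNA took 0.575 to 0.679% of counts in WT F1, KO M2, GFP vector M2, Fst vector M2 and Fst vector F, and 0.00919 to 0.0211% in the 7 other libraries. Libraries are named by group and by the sex and number in their titles; for WT F1, WT M2, KO F1 and KO M2 the descriptions give the other sex, while Xist was at 1214 to 1785 CPM in the 4 libraries titled F and at most 0.525 CPM in the others. GFP vector F stood apart, with 4864 CPM of the astrocyte filament gene Gfap against 370 to 1555 CPM in the 11 others. The sources do not settle whether a library pools mice, and p-values here reflect how these libraries spread and nothing wider.

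All 4 Id genes were detected in every library, and the order of the group means was the same for each: lowest in KO, then WT, then GFP vector, highest in Fst vector. In a bulk tissue, fewer cells of a type and less RNA per cell cannot be told apart, for these and all values that follow. Id1 had 52 to 120 counts per library, so it carries the largest counting error of the 4, while Id4 had 744 to 1605. On the scale of CPM per kilobase of merged exons, which allows levels of different genes to be compared, WT means were 24.8 ± 1.93 for Id4, 21.6 ± 2.77 for Id2, 14.6 ± 0.527 for Id3 and 6.43 ± 1.35 for Id1 (SD, n = 3 each). For Id2 and Id3 the merged exons include annotated bases before the RefSeq start, so these levels depend on the annotation. Id4 and Id2 overlapped in WT, and the steps from Id2 to Id3 and from Id3 to Id1 did not. In the Fst vector group the order was Id4 at 38.2 ± 3.86, Id3 at 29.9 ± 6.25, Id2 at 27.2 ± 4.95 and Id1 at 9.01 ± 1.01 CPM per kilobase, and there Id3 overlapped both of its neighbours.

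**Figure D1:**
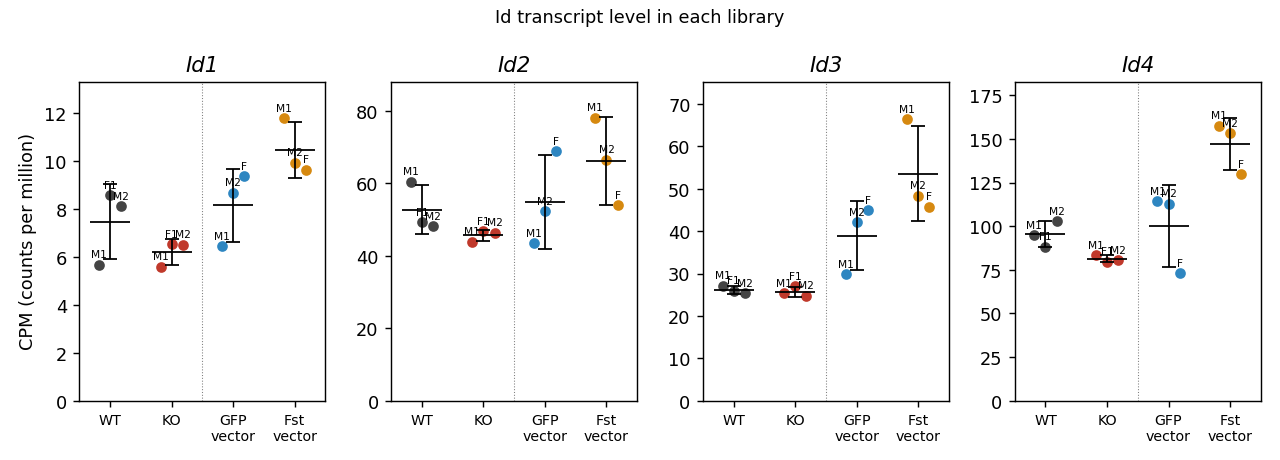
Level of each Id gene in each of the 12 libraries, in CPM on axes that start at 0; bars are the mean and SD of 3 libraries, and the dotted line separates the count tables. Id4 in the Fst vector group lies at 130.0 to 157.6 CPM, above the 9 other libraries, and all KO libraries of Id4 and Id2 lie below all WT libraries.

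The loss of Fst was examined by comparing KO with WT. Id4 stood at 94.99 CPM in WT M1, 88.3 in F1 and 103.1 in M2, and at 83.6 CPM in KO M1, 79.7 in F1 and 80.6 in M2. The groups did not overlap, with KO the lower. The means were 81.3 ± 2.04 CPM in KO and 95.4 ± 7.41 CPM in WT (SD, n = 3 each). The log2 change was -0.22 ± 0.07 (SE; 95% interval -0.35 to -0.08). By p from edgeR's quasi-likelihood test Id4 ranked 79 among 14919 genes, but the Benjamini-Hochberg adjusted p was 0.523 and Id4 was not called.

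Id2 showed a similar picture at a smaller size. It was at 60.5, 49.3 and 48.3 CPM in WT M1, F1 and M2, and at 43.9, 46.8 and 46.4 CPM in KO M1, F1 and M2. KO lay below WT without overlap, but the gap between the nearest libraries was small and WT M1 stood above all others. The log2 change was -0.19 ± 0.09 (SE; edgeR quasi-likelihood, adjusted p = 0.837), and -0.08 without WT M1.

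Id1 and Id3 overlapped between the groups. Id1 was at 5.67, 8.58 and 8.12 CPM in WT M1, F1 and M2, and at 5.59, 6.53 and 6.50 CPM in KO M1, F1 and M2, with a log2 difference of -0.25 ± 0.19 (SE; edgeR quasi-likelihood, adjusted p = 0.935). Its 95% interval ran from -0.64 to 0.14. WT M1 lay among the KO libraries, and without it the log2 change was -0.41. Without WT F1, the highest WT library, it was -0.13. Id3 was the steadiest of the 4 here. It lay at 27.2, 26.0 and 25.3 CPM in WT M1, F1 and M2 and at 25.3, 27.1 and 24.8 CPM in KO M1, F1 and M2. Its log2 change was -0.01 ± 0.10 (SE; edgeR quasi-likelihood, adjusted p = 0.997), with a 95% interval of -0.21 to 0.19.

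None of the 4 Id genes was called in KO against WT at adjusted p under 0.05, where edgeR called 0.0268% of all genes. At unadjusted p under 0.05, 2 of 4 were lower, against 3.01% of all genes. The groups did not overlap, with KO lower, for 2 of 4, against 7.04% of all genes. All 4 log2 changes were below 0, as were 50.3% of all genes, and their median was -0.20, where that of all genes was near 0. Over the 6 pairs of members in these 6 libraries, Pearson's r ran from -0.24 to 0.52 and no pair passed an exact permutation test (lowest adjusted p = 0.721).

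Most markers of blood, of newborn neurons and of meningeal fibroblasts also lay below 0 in KO. The 5 blood markers were all below 0 in KO against WT, median log2 change -0.45, with summed levels of 35.1 to 54.4 CPM in WT and 32.5 to 39.2 CPM in KO. WT M1, the WT library lowest in Id1, was also the WT library lowest in blood markers. The 6 tested of 8 newborn neuron markers were all below 0, median -0.26, with sums of 186 to 197 CPM in WT and 158 to 188 CPM in KO. Of 10 meningeal fibroblast markers 8 were tested and 7 of these were below 0, median -0.48, with sums of 30.8 to 52.3 CPM in WT and 22.9 to 39.5 CPM in KO. Of 12 astrocyte markers 8 were below 0, median -0.08, and their sums were 4757 to 4870 CPM in WT and 4698 to 4793 CPM in KO. Endothelial markers went the other way, with 8 of 10 above 0 and a median of 0.04. Their sums were 167 to 184 CPM in WT and 173 to 200 CPM in KO. Among 10 neural stem cell markers Sox1, a progenitor transcription factor, was called lower, at -1.03 ± 0.19 (SE; edgeR quasi-likelihood, adjusted p = 0.0259), and the sums were 214 to 235 CPM in WT and 203 to 231 CPM in KO. No marker of these lists was at 0 in all libraries. The part of these cell types in the Id values was not tested.

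**Figure D2:**
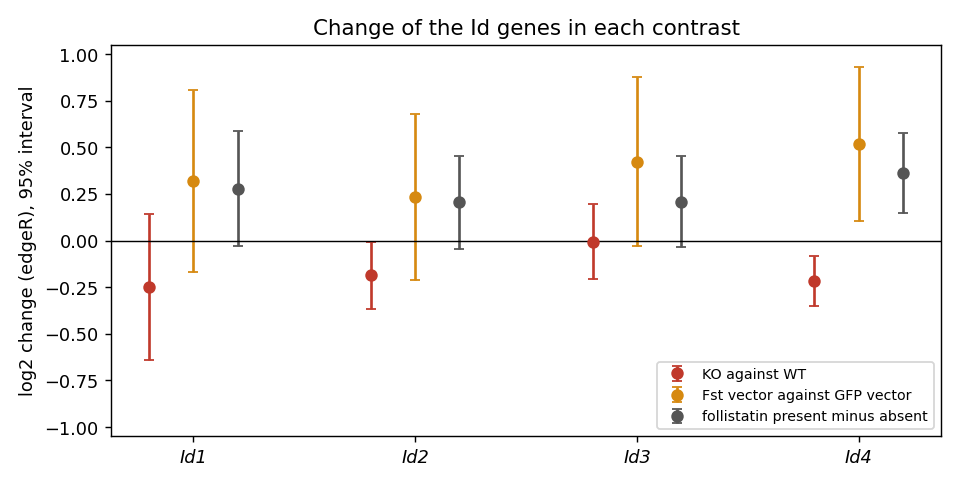
Log2 change of each Id gene with its 95% interval from edgeR, for KO against WT, for the Fst vector against the GFP vector, and for the average of both effects with follistatin present minus absent. All 4 points of KO against WT lie below 0 and all others above it; the interval of Id4 excludes 0 in each contrast before adjustment over genes.

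The Fst vector group was then compared with the GFP vector group, in which Fst had 0 or 1 counts. Id4 was at 114.5, 113.0 and 73.2 CPM in GFP vector M1, M2 and F, and at 157.6, 153.3 and 130.0 CPM in Fst vector M1, M2 and F. Every Fst vector library lay above every GFP vector library, and GFP vector F was far below its group. The means were 147.0 ± 14.9 against 100.2 ± 23.4 CPM (SD, n = 3 each), 46.7% higher with the Fst vector. The log2 change was 0.52 ± 0.18 (SE; 95% interval 0.10 to 0.93; edgeR quasi-likelihood, adjusted p = 0.421). Without GFP vector F, the library with the most Gfap, it was 0.33 ± 0.14. With the replicate name as a block it was 0.54 ± 0.12 (edgeR quasi-likelihood, adjusted p = 0.0854).

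Id3 was at 29.8, 42.1 and 45.0 CPM in GFP vector M1, M2 and F, and at 66.4, 48.4 and 45.8 CPM in Fst vector M1, M2 and F. The groups did not overlap, but Fst vector F, at 45.8 CPM, barely exceeded GFP vector F, and Fst vector M1 lay far above the rest. The log2 change was 0.42 ± 0.20 (SE; edgeR quasi-likelihood, adjusted p = 0.570); it was 0.23 without Fst vector M1 and 0.27 without GFP vector M1. The vector table as a whole held more Id3 than the other: each of its 6 libraries exceeded each of the 6 WT and KO libraries, and the mean of the GFP vector group was 49.0% above that of WT. For Id1, Id2 and Id4 the corresponding excess of the GFP vector group over WT was 9.32%, 4.28% and 4.98%, and the libraries of those groups overlapped. These are levels across tables and were not tested.

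Id1 was at 6.43, 8.67 and 9.35 CPM in GFP vector M1, M2 and F, and at 11.8, 9.92 and 9.63 CPM in Fst vector M1, M2 and F. The groups did not overlap, again by a narrow margin between the F libraries. The log2 change was 0.32 ± 0.21 (SE; edgeR quasi-likelihood, adjusted p = 0.710), and 0.18 without GFP vector M1. Id2 was at 43.6, 52.3 and 69.0 CPM in GFP vector M1, M2 and F, and at 78.2, 66.5 and 54.0 CPM in Fst vector M1, M2 and F. Here the groups overlapped, with GFP vector F above both Fst vector M2 and F. The log2 change was 0.23 ± 0.20 (SE; edgeR quasi-likelihood, adjusted p = 0.768). It was 0.09 without Fst vector M1, 0.10 without GFP vector M1, 0.36 without Fst vector F and 0.43 without GFP vector F.

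None of the 4 Id genes was called in the vector comparison at adjusted p under 0.05, where edgeR called 0.0798% of all genes. At unadjusted p under 0.05, 1 of 4 was higher, against 4.34% of all genes. The groups did not overlap, with the Fst vector higher, for 3 of 4, against 10.5% of all genes. All 4 log2 changes were above 0, as were 51.0% of all genes, with a median of 0.37 against 0.01 for all genes.

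Several cell type markers also stood higher with the Fst vector, while others stood lower or lay on both sides of 0. All 10 endothelial markers were above 0, median log2 change 0.24, with sums of 140 to 220 CPM in the GFP vector group and 212 to 230 CPM in the Fst vector group. Of 8 oligodendrocyte markers 7 were above 0, median 0.39, and their sums did not overlap, at 1159 to 1359 and 1548 to 1861 CPM. Of 5 blood markers 4 were above 0, median 0.39, with sums of 42.9 to 60.2 and 56.2 to 91.6 CPM. Astrocyte markers were above 0 for 7 of 12, median 0.09, with sums of 4186 to 9159 and 4466 to 5314 CPM. All 8 microglia markers were below 0, median -0.31. So were the 4 tested of 9 choroid plexus and ependyma markers, median -0.72, and 5 of 8 mature granule cell markers, median -0.20. Neural stem cell markers were above 0 for 5 of 10, median 0.06, with sums of 220 to 576 and 284 to 316 CPM. Of 8 newborn neuron markers 5 were tested and 3 of these were above 0, median 0.42. The sums over all 8 did not overlap, at 164 to 235 CPM in the GFP vector group and 237 to 241 CPM in the Fst vector group. The mean log2 over WT, which weighs each of the 8 alike, did overlap. It was -0.58 to -0.24 in the GFP vector group and -0.34 to -0.27 in the Fst vector group. No marker of these lists was at 0 in all libraries, none was called, and their part in the Id values was not tested.

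**Figure D3:**
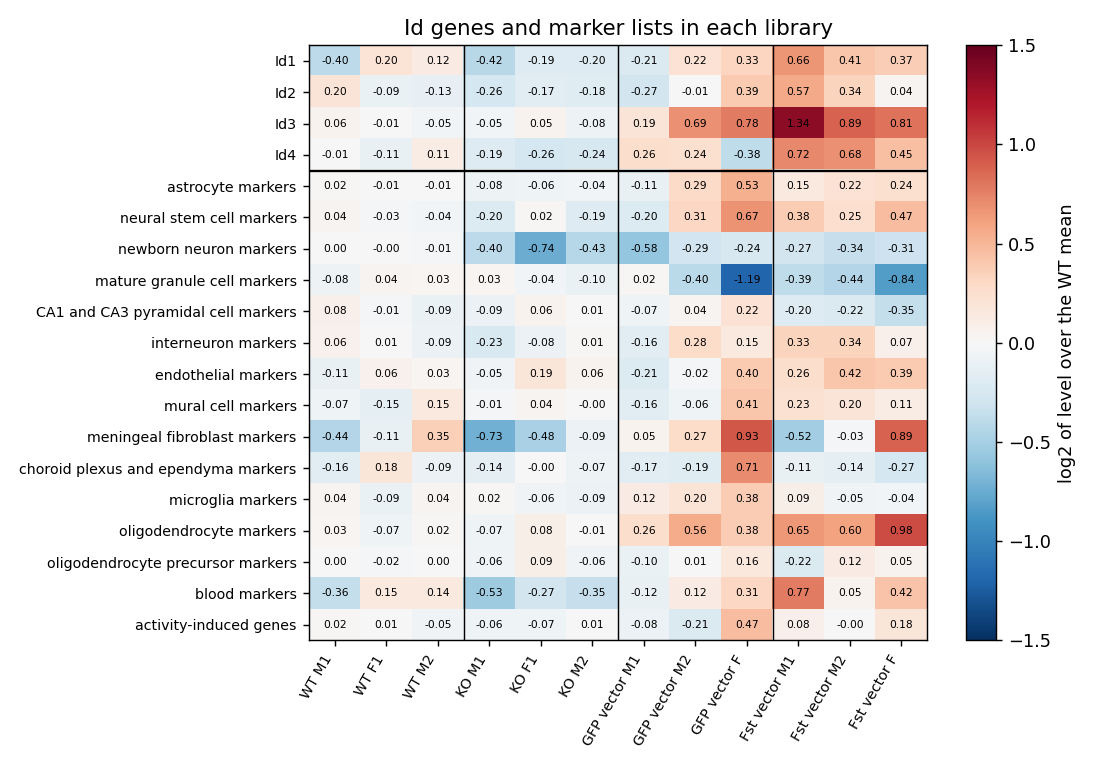
Each row is an Id gene or a marker list and each column a library; colour and number give the log2 of its level over the WT mean, for lists as the mean over the genes. GFP vector F is the highest library for astrocyte markers at 0.53 and the lowest for mature granule cell markers at -1.19, and it is the lowest library for Id4 but not for Id1, Id2 or Id3.

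In the vector table the levels of Id1, Id2 and Id3 were correlated when libraries were permuted freely, which ignores the 2 groups, while no such correlation was detected for Id4. The 6 pairs of members in each table made 12 relations. Over the 6 vector libraries Pearson's r of log2 CPM was 0.986 between Id1 and Id3 (exact permutation test, two-sided, p = 0.00278, adjusted over the 12 relations 0.0333), and Spearman's rho was 1 (adjusted p = 0.0333, exact permutation). It was 0.974 without the 2 libraries farthest from the median of Id1 and 0.976 for deviations from the group means. Between Id1 and Id2 r was 0.889 and between Id2 and Id3 0.892 (exact permutation, adjusted p = 0.0444 for both); Spearman's rho was 0.943 for both, at an adjusted p of 0.0667. Without the 2 farthest libraries these were 0.658 and 0.734, so they rest in part on those libraries. Id4 correlated with the others at 0.07 to 0.36 (exact permutation, adjusted p of at least 0.721), and within groups at -0.42 to -0.25. Spearman's rho of Id4 was 0.60 with Id1, 0.37 with Id2 and 0.60 with Id3 (exact permutation, adjusted p of at least 0.483). These values include GFP vector F, the lowest library for Id4 at 73.2 CPM, and correlations without that library alone were not computed. When libraries were permuted only inside their groups, the deviations gave p = 0.0278 for Id1 with Id3, the smallest that the 36 arrangements allow, and p = 0.0833 for the other pairs among Id1, Id2 and Id3 (exact permutation, two-sided). In that design a pair that alone reaches the smallest p cannot pass 0.05 over 12 relations. Each of these 3 had a Benjamini-Hochberg adjusted p of 0.333 (exact permutation inside groups). The libraries with a high share of ribosomal RNA number 3 in this table, too few for a value within them.

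**Figure D4:**
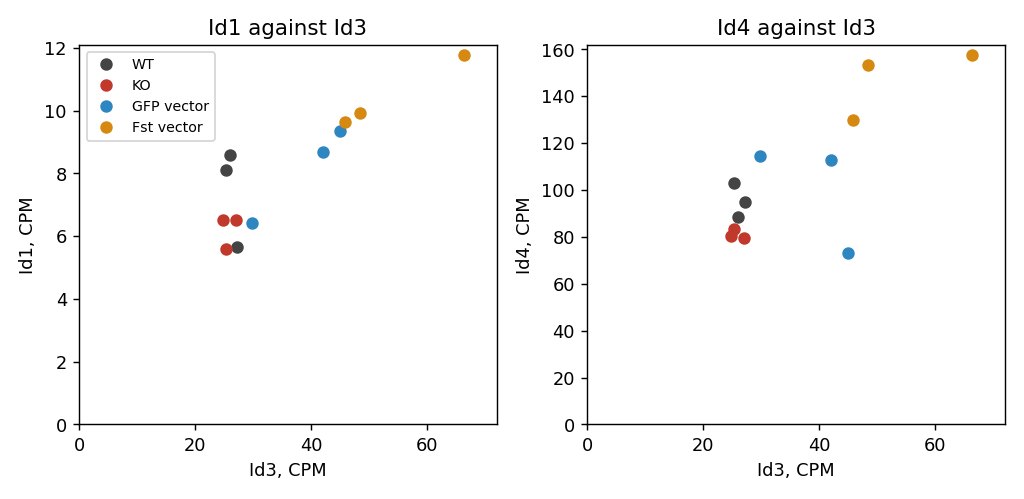
Each point is a library, with Id3 in CPM on the horizontal axes and Id1 (left) or Id4 (right) in CPM on the vertical axes; colours are the 4 groups. In the vector libraries Id1 follows Id3 from 6.43 to 11.8 CPM, while at 45.0 CPM of Id3 the GFP vector F library has the lowest Id4, 73.2 CPM.

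Both comparisons were averaged in 1 fit of all 12 libraries, each taken as follistatin present minus absent. The average was 0.36 ± 0.10 for Id4 (SE; edgeR quasi-likelihood, adjusted p = 0.173), with a 95% interval of 0.15 to 0.58. It was 0.28 ± 0.14 for Id1, 0.21 ± 0.11 for Id3 and 0.21 ± 0.12 for Id2 (adjusted p from 0.551 to 0.598). Without Fst vector M1 the average was 0.11 for Id3 and 0.13 for Id2, and without GFP vector M1 it was 0.14 for Id3. None of the 4 passed, where 0.281% of all 15632 genes did. With the replicate name as a block Id4 was called, at 0.37 ± 0.07 (edgeR quasi-likelihood, adjusted p = 0.0128). That block also covered WT and KO, whose libraries were not taken as paired. Id4 was called too with no filter on low counts, at 0.37 ± 0.08 (edgeR quasi-likelihood, adjusted p = 0.00311). Over the 19 alternatives its value ran from 0.27 to 0.48 and its adjusted p from 0.00311 to 0.420; the 17 others did not call it.

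Whether the vector effect differed in size from that of the intact gene was tested in the same fit, as the Fst vector minus GFP vector effect less the WT minus KO effect. The difference was 0.41 ± 0.23 for Id3, 0.30 ± 0.20 for Id4, 0.06 ± 0.29 for Id1 and 0.04 ± 0.23 for Id2 (SE; edgeR quasi-likelihood, adjusted p from 0.652 to 0.979). None was called, where 0.109% of all genes were. The intervals were wide, from -0.07 to 0.89 for Id3 and from -0.13 to 0.72 for Id4. For Id3 the difference was 0.22 without Fst vector M1 and 0.27 without GFP vector M1, and for Id4 it was 0.12 without GFP vector F.

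The machinery upstream of the Id genes was read from lists of the BMP pathway. Of 14 BMP ligands 5 were tested in KO against WT and 6 in the vector comparison, and none was called in either. Bmp3, a BMP that opposes others, had a log2 change of 1.01 ± 0.42 in KO (SE; edgeR quasi-likelihood, adjusted p = 0.761), from 0.915 ± 0.340 to 1.84 ± 0.808 CPM (SD, n = 3 each). Gdf11, a ligand that signals through SMAD2 and SMAD3 and binds follistatin, had 0.77 ± 0.16 with the Fst vector (SE; edgeR quasi-likelihood, adjusted p = 0.173), at 23.1 ± 3.41 CPM in the GFP vector group and 40.5 ± 5.33 CPM in the Fst vector group. Its groups did not overlap. All 11 receptors and co-receptors were tested in both comparisons and none was called. In KO against WT 10 of 11 were below 0, median -0.04; the lowest p belonged to the co-receptor gene Rgma, at -0.22 ± 0.11 (adjusted p = 0.837). In the vector comparison 2 were lower at unadjusted p under 0.05, where 5.16% of all genes were: the type II receptor gene Bmpr2, at -0.45 ± 0.17, and the type I receptor gene Acvr1. Acvr1 had the lowest p, at -0.99 ± 0.36 (SE; edgeR quasi-likelihood, adjusted p = 0.450), from 80.6 ± 40.7 to 41.6 ± 8.73 CPM, with overlap.

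BMP antagonists divided into Fst and the rest. Fst was the antagonist called in each comparison, being the gene that was deleted or delivered; none of the 12 others tested in KO against WT or the 13 others tested with the vector was called. Fstl1, a follistatin-like protein, had the lowest p of these with the vector, at -0.59 ± 0.18 (SE; edgeR quasi-likelihood, adjusted p = 0.346), from 31.7 ± 7.04 to 21.6 ± 0.473 CPM without overlap, and 0.21 ± 0.10 in KO. Noggin (Nog), a BMP trap, had -0.54 ± 0.30 with the vector and -0.08 ± 0.17 in KO.

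None of the 12 genes listed as SMADs and their regulators was called. In the vector comparison the log2 changes of the BMP branch SMAD genes were -0.08 ± 0.18 for Smad1, 0.09 ± 0.12 for Smad5 and -0.35 ± 0.25 for Smad9, and that of the shared partner Smad4 was -0.04 ± 0.17 (SE). Of the 12, 4 were lower with the Fst vector at unadjusted p under 0.05, against 5.16% of all genes. These were the corepressor genes Ski and Skil, the inhibitory SMAD gene Smad7 and the ubiquitin ligase gene Smurf2. Skil had the lowest p, at -2.00 ± 0.35 (SE; edgeR quasi-likelihood, adjusted p = 0.158), with 132 ± 66.1 CPM in the GFP vector group and 33.9 ± 5.68 CPM in the Fst vector group. In KO against WT Skil had -0.10 ± 0.06 (adjusted p = 0.932).

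The other BMP targets lay mostly below 0 with the vector. Of 16 listed, 11 were tested, and 8 of the 11 were below 0, where 49.0% of all genes were. The median of the 11 was -0.27, and none was called. Those below 0, apart from Lfng, also stand in the lists of SMADs, antagonists or Hes and Hey repressors. These lists are therefore not separate evidence. The lowest p was that of Smad7, at -0.97 ± 0.22 (SE; edgeR quasi-likelihood, adjusted p = 0.211), from 18.2 ± 3.82 to 9.52 ± 1.86 CPM without overlap. Smad6, the inhibitory SMAD most tied to BMP signals, had -0.58 ± 0.33. Its level was low, from 1.85 ± 0.214 to 1.27 ± 0.0834 CPM without overlap. In KO against WT 6 of the 11 were below 0, median -0.05, and Lfng, a modifier of Notch receptors, had the lowest p, at -0.25 ± 0.13 (adjusted p = 0.866).

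In the vector comparison the tested targets of activin and TGF-beta lay on the other side of 0 from the Id genes. Of 12 listed, 9 were tested with the vector and all 9 were below 0, as were 49.0% of all genes, with a median of -0.97. At unadjusted p under 0.05, 4 were lower, against 5.16% of all genes, and none was called. These 4 were Skil, Smad7, Klf10 and Pmepa1, and the first pair also stands in the BMP lists. Pmepa1, a feedback inhibitor of TGF-beta signalling, had 71.9 ± 64.5 CPM in the GFP vector group and 9.48 ± 1.49 CPM in the Fst vector group. Its log2 difference of -2.96 ± 0.70 (SE) was not called (edgeR quasi-likelihood, adjusted p = 0.299). In KO against WT 5 of 8 tested were above 0 and 3 below 0, the side of the Id genes, with a median of 0.07. Pmepa1 had the lowest p there, at 0.33 ± 0.10 (adjusted p = 0.411), from 27.4 ± 0.938 to 34.1 ± 3.75 CPM without overlap. Levels of several of these genes varied widely in the GFP vector group. Bdnf, an activity-induced member of the list, ran there from 73.4 CPM in M1 to 207.9 CPM in F. It varied as widely in the Fst vector group, from 75.6 CPM in M1 to 192.4 CPM in F.

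**Figure D5:**
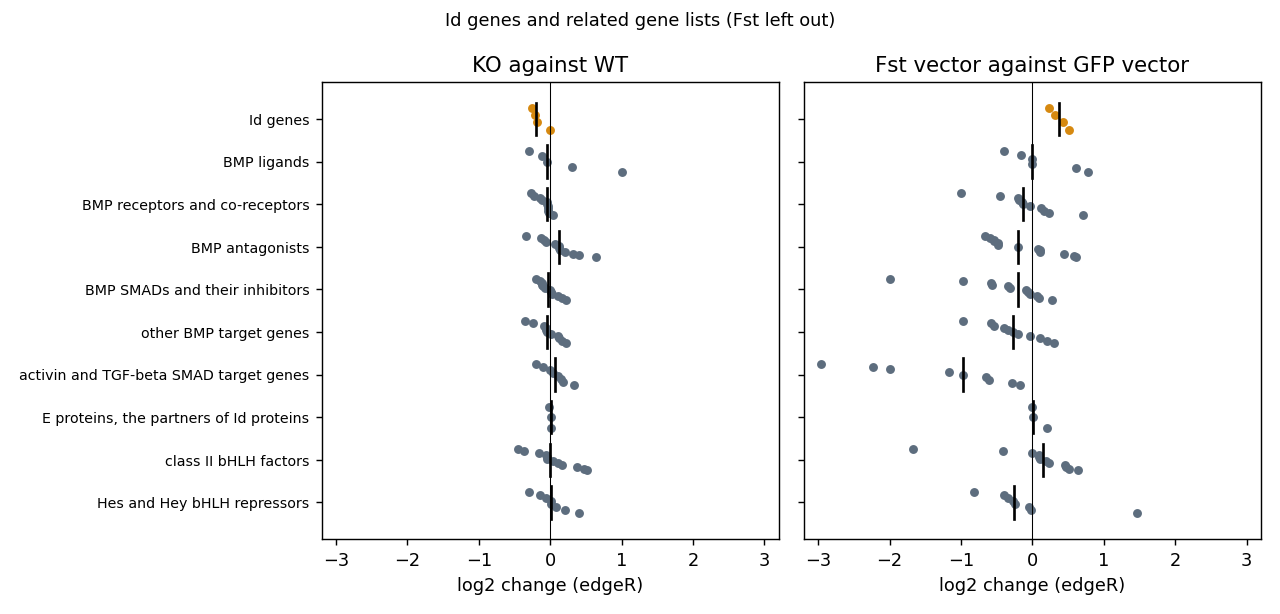
Log2 change from edgeR of each tested gene of the pathway lists, in KO against WT (left) and in the Fst vector against the GFP vector (right); the vertical bar is the list median and Fst is left out. On the right the 4 Id genes lie above 0 with a median of 0.37, and the 9 targets of activin and TGF-beta below 0 with a median of -0.97.

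Downstream, the E proteins with which Id proteins pair had values near 0. Tcf4, the most abundant of the 3 by CPM, was at 513 ± 13.4 CPM in WT, 503 ± 21.1 in KO, 443 ± 53.8 in the GFP vector group and 456 ± 77.6 in the Fst vector group. Its log2 change was -0.01 ± 0.06 in KO and 0.01 ± 0.16 with the Fst vector (SE; edgeR quasi-likelihood, adjusted p = 0.996 and 0.995). Tcf3 had 0.20 ± 0.13 with the vector (adjusted p = 0.705), and none of the 3 was called.

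The class II factors, which E proteins join to activate cell-type genes, had 12 of 18 members tested and none called in either comparison. Neurod2, a factor of mature excitatory neurons, had the lowest p with the vector, at -1.67 ± 0.31 (SE; edgeR quasi-likelihood, adjusted p = 0.158), with 408 ± 108 CPM in the GFP vector group and 131 ± 50.0 CPM in the Fst vector group, without overlap. Neurod1, which acts in newborn granule cells, had 0.64 ± 0.25 (adjusted p = 0.482), the other direction. In KO against WT Nhlh1 had the lowest p, at 0.37 ± 0.19 (adjusted p = 0.850).

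The list of Hes and Hey repressors, several of which answer Notch and partly BMP signals, also held Bhlhe40 and Bhlhe41. Of its 9 genes 8 were tested and none was called. Hes5, a Notch target of neural stem cells, had 1.46 ± 0.51 with the Fst vector (SE; edgeR quasi-likelihood, adjusted p = 0.421), from 1.80 ± 1.08 to 5.02 ± 1.90 CPM without overlap. The 7 others tested were below 0 there. Bhlhe40, a repressor that responds to many stimuli, had -0.29 ± 0.07 in KO (SE; edgeR quasi-likelihood, adjusted p = 0.235), from 107 ± 5.38 to 86.2 ± 11.0 CPM without overlap.

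The genes whose levels most resembled each Id gene over the 12 libraries were ranked by Pearson's r of log2 CPM among 11640 genes, as a description in which all points share libraries, depth and group differences. Id1 most resembled the haemoglobin genes Hba-a2 (r = 0.969) and Hbb-bs (0.945), whose reads may be shared with near-identical copies, and Sox13 (0.941). Hba-a2 ran from 5.36 CPM in KO and 7.35 in WT to 8.71 in the GFP vector group and 12.6 in the Fst vector group, as means. The resemblance held for deviations from the group means, at 0.919. Id3 most resembled Por (0.993), which encodes cytochrome P450 oxidoreductase, Fam171a2 (0.983) and Clu (0.977), the clusterin gene. Por was at 103 CPM in WT, 100.4 in KO, 131 in the GFP vector group and 154 in the Fst vector group. Id2 most resembled Agt (0.945), the angiotensinogen gene, Gcsh (0.917) and Ube2l6 (0.892). Id4 most resembled Enho (0.970), Pgrmc1 (0.962) and G6pc3 (0.957); Enho was at 26.5, 22.2, 28.2 and 43.0 CPM in the same order of groups. No gene was among the leading 3 of more than 1 Id gene.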

How the data were processed

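Total RNA of the dentate gyrus was sequenced in 12 libraries, 3 per group, grouped by the sample descriptions. Per the file headers, the authors' deposited values are raw counts of reads by Ensembl gene, with WT and KO in their own table and the vector groups in theirs. Per the submitters' processing notes the build was GRCm38. The strand setting, the counter and the aligner were not given in the sources used here. Lines that name no gene, 12 in the vector table and 6 in the other, held 0 counts and were left out. GENCODE gave symbols and coordinates for 52489 of 52636 genes, and merged exon lengths.

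CPM were counts scaled by library totals of 8081824 to 11331337. edgeR 4.0.16 (in R 4.3.3) scaled libraries by TMM, dropped low genes by filterByExpr and ran its quasi-likelihood test with robust dispersion for each comparison. Benjamini-Hochberg adjustment ran over all genes tested, with calls at 0.05. KO against WT and Fst vector against GFP vector used 6 libraries each, and the average and the size difference of the effects all 12. The planned difference of the vector and KO effects equals the average times a constant and gave the same p, so the size difference was added after the data were seen. SE is the size of the log2 change over the square root of F. The scripts were tested on simulated data. Levels across tables were not tested. Between replicates the chi-square of their counts was 2.39 to 31.5 per degree of freedom, so none were taken for 1 library deposited 2 times. Floors cover counting error only.

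The members, lists and markers were chosen with earlier results of these data known. Besides the Id genes, the rule named called list members, the member of lowest p of each pathway list in each comparison, the 3 genes most like each Id gene (mean of at least 5 CPM) and Fst. Other genes, such as Smad1, Smad5, Smad6, Smad9, Nog, Klf10 and Bdnf, and those making up counts of 5 or fewer, were named after their values were seen. Correlations used log2 CPM with TMM scaling and a prior count of 2; the permutation inside groups was added after seeing the data.

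Alternatives were library totals without TMM, DESeq2 1.42.0, no filter, a replicate block, sex by title or ribosomal RNA share as a term, a spread shared over 12 libraries, leaving out each library and, added after seeing the data, leaving out the libraries high in ribosomal RNA. Replicate names recur across the groups of a table. Deviations from group means of same-named libraries correlated at 0.303 (M1), 0.137 (M2) and 0.386 (F) in the vector table. All lay above 0.1, so the names were taken to pair those libraries, a pairing that comes from the data. It was not established, since the differently named GFP vector M1 and Fst vector M2 gave 0.120. The other differently named vector pairs gave -0.436 to 0.0356. WT and KO gave 0.0638 (M1), 0.153 (F1) and -0.0612 (M2) and were not taken as paired. There the differently named WT M2 and KO M1 gave 0.179, above each same-named pair. The main fits used no pairing, and the replicate block was applied by name to WT and KO as well.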

Additional observations from a re-analysis of the deposited data

How the results depend on the processing

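The Id values kept their sign in each alternative, apart from Id3 in KO against WT and from Id1 and Id2 in the size difference of the effects. None of the 4 was called in any alternative of the within-table comparisons, DESeq2 included. The average for Id4 was called with the replicate block (0.37) and with no filter (0.37); the block changed no other call of an Id gene. Id3 in KO against WT lay between -0.046 and 0.024 when each library was left out and at 0.025 without the libraries high in ribosomal RNA. The size difference ran from -0.084 to 0.18 for Id1 and from -0.11 to 0.24 for Id2 when each library was left out. Values of Id4 with the vector ran from 0.33 to 0.73 (adjusted p 0.0731 to 0.870).

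Counts of genes called moved more. For KO against WT, 4 became 46 with no filter, 19 with the replicate block, 30 with the sex term, 1 with the shared spread, 20 without the libraries high in ribosomal RNA, and 2 to 17 leaving out each library. For the vector comparison, 12 became 250 with DESeq2, 230 with no filter, 150 with the replicate block, 132 with the sex term, 4 with the ribosomal RNA term, 412 with the shared spread and 1 to 29 leaving out each library. Without the libraries high in ribosomal RNA, edgeR's quasi-likelihood test called 0 there, with Fst vector M1 alone in its group and assumed to vary like the others (630 at unadjusted p under 0.05, and 16 called by DESeq2). For the average, 44 became 246 with DESeq2, 210 with no filter, 289 with the replicate block, 80 with the sex term, 9 without the libraries high in ribosomal RNA, and 13 to 183 leaving out each library. The causes were not tested. Of the log2 changes of Id genes recomputed, 251 kept their sign and their side of the threshold, 11 turned sign and 2 passed the threshold anew; of the correlations recomputed, 12 moved, 7 of them across 0. Counts of 52 to 120 per library limit Id1 most, and 3 libraries a group limit each comparison.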

Other observations

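KO and the GFP vector group share the loss of Fst but lie in different tables, so their levels were set side by side without a test. Mean CPM in the GFP vector group was 1.31 times that of KO for Id1, 1.20 times for Id2, 1.51 times for Id3 and 1.23 times for Id4. The Fst vector group stood at 1.40 times the WT mean for Id1, 1.26 times for Id2, 2.05 times for Id3 and 1.54 times for Id4. Id3 was thus the Id gene with the highest ratio in both, while it had the ratio nearest to 1 between KO and WT, 0.984.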
